A study of Mus musculus with 2 samples.

Results

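Fibroblasts that carry *Pi16* and *Dpp4* were selected on raw unique molecular identifier (UMI) counts from 2 single-cell RNA sequencing libraries of the mouse mammary stroma. A cell was kept with at least 500 detected genes, at most 10% mitochondrial UMIs, at least 1 UMI of *Pdgfra* (a receptor that marks fibroblasts) and at least 2 UMIs each of *Pi16* and *Dpp4*. Cells with at least 2 UMIs of *Ccn5* together with any UMI of *Pgr*, *Greb1* or *Prg4* were dropped, as were cells in which 4 or more of the interferon-response genes *Rsad2*, *Cxcl10*, *Ifit1*, *Ifit3*, *Isg15*, *Usp18* and *Zbp1* were detected. These measured values chose 15818 of 39877 *Pdgfra*+ cells, 9657 from the pubertal and 6161 from the adult library. They are called progenitor fibroblasts here after the role such cells are known for, which was not measured.

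Both libraries came from the mammary gland of female wild-type C57BL/6 mice, 1 from puberty (4 weeks of age) and 1 from virgin adults (9 weeks). Stromal cells had been sorted as negative for CD24 and for the lineage markers of immune, endothelial and red blood cells, and the labels give 2 females per condition. Both libraries are labelled replicate 2. In this series no stage had a second library, so the spread between animals is unknown. Every difference is between these 2 libraries, and intervals in the text are 95% intervals for counting error only.

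Fibroblasts with *Pi16* and *Dpp4* are found in the connective tissue of many organs, where they line the fascia and the outer coat of vessels. They are known as a reservoir from which more specialized fibroblasts arise, and in fat depots they give rise to committed preadipocytes. *Pi16* encodes a secreted peptidase inhibitor, and *Dpp4* encodes CD26, a cell-surface peptidase often used to sort such cells.

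Progenitor fibroblasts were a larger share of *Pdgfra*+ cells at puberty than in the adult. They made up 51.2% of 18878 *Pdgfra*+ cells at puberty (exact binomial interval 50.4 to 51.9) and 29.3% of 20999 in the adult (28.7 to 30.0), an adult share of 0.574 times the pubertal one (0.555 to 0.592). With the dropped cells counted in, the shares were 70.2% and 36.1%, a ratio of 0.514. The interferon criterion dropped 24.3% of the *Pi16* *Dpp4* cells at puberty and 16.7% in the adult, and the *Ccn5* criterion 4.02% and 3.14%. The interferon criterion took deeper cells, with a median of 14386 UMIs at puberty and 15488 in the adult, against 11928 and 12603 UMIs in the progenitor fibroblasts. Their part in the difference between stages was not tested.

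**Figure D1:**
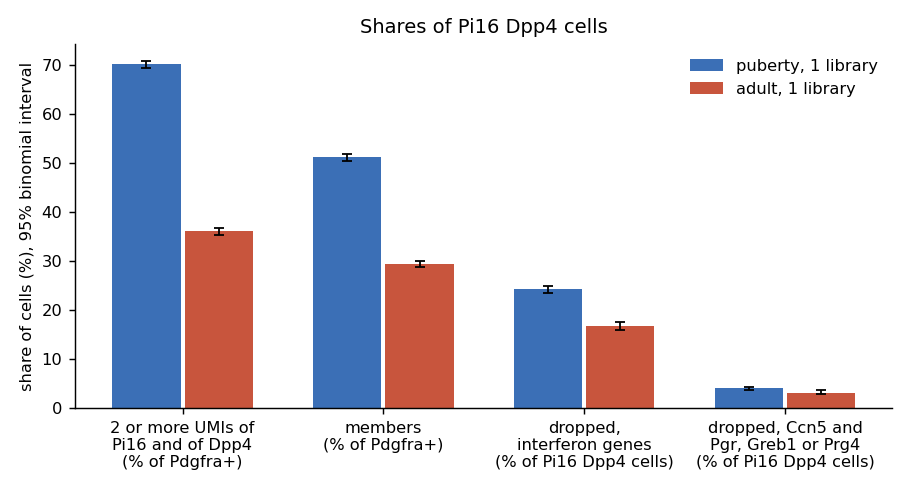
Shares of cells (%) at each step of the selection, in the pubertal (blue) and the adult (red) library, with exact 95% binomial intervals as error bars. At puberty 70.2% of *Pdgfra*+ cells had 2 or more UMIs of both genes and 51.2% remained as progenitor fibroblasts (members), against 36.1% and 29.3% in the adult.

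The libraries held 255274670 UMIs in 21688 barcodes at puberty and 259549498 UMIs in 23183 barcodes in the adult, and 145 barcodes, 15 of them of progenitor fibroblasts in both, occurred in both libraries. The other 9221 pubertal and 14838 adult *Pdgfra*+ cells had median depths of 12539 and 10518 UMIs. At puberty 3587 of those 9221 cells were *Pi16* *Dpp4* cells removed by the interferon or *Ccn5* criterion, against 1413 of 14838 in the adult. A further comparison, added after the data were seen, was with the 5634 pubertal and 13425 adult *Pdgfra*+ cells with under 2 UMIs of *Pi16* or of *Dpp4*. In a run of genes the comparison is named once, and later compared levels belong to the cells named last. Levels are UMIs summed over the cells of a group and divided by all UMIs of the group, in the usual CPM unit.

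Markers of other cell types were scarce in the progenitor fibroblasts. At least 3 epithelial markers were found in 0 pubertal and 1 adult cell, at least 3 endothelial markers in 4 and 3 cells, and at least 3 immune markers in 0 cells of either library, which allows a share of up to 0.0311% and 0.0487% with 3 counts as the limit. The 7 epithelial markers summed to 0.736 CPM at puberty and 1.05 CPM in the adult, the 8 immune markers to 1.75 and 1.21 CPM, and the pan-leukocyte gene *Ptprc* was at 0. At least 3 of 7 pericyte and smooth muscle markers were detected in 1.40% of pubertal and 0.552% of adult progenitor fibroblasts, against 2.62% and 0.903% of the other *Pdgfra*+ cells. For at least 3 Schwann markers the shares were 0.155% and 0.308%, against 0.282% and 0.249% of the others. At least 3 muscle markers were found in 3 pubertal and 1 adult progenitor fibroblasts. Of 13 cell cycle genes, 3 or more were detected in 0.839% and 1.04% of progenitor fibroblasts and in 1.46% and 1.17% of the others. Among endothelial genes, *Pecam1* stood at 26.2 and 10.4 CPM and *Kdr* at 22.0 and 17.8 CPM, while *Cdh5*, at 0.161 and 0.136 CPM, and *Vwf*, at 0.0169 and 0.124 CPM, were near 0. Scrublet, a doublet caller, placed 9.39% of pubertal and 13.1% of adult progenitor fibroblasts among its highest scores, against 8.76% and 8.43% of the other *Pdgfra*+ cells.

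The other 7 genes of the progenitor marker list were not in the rule but had been picked with results of these data known, so their levels are a description and no independent check of the label. All 7 were at least 2-fold higher than in the other *Pdgfra*+ cells of both libraries, where 1.22% of all genes were. *Sema3c*, a secreted guidance factor, was counted at 1422 CPM in progenitor fibroblasts of puberty and at 1555 CPM in those of the adult, against 622 and 255 CPM in the other cells. *Anxa3*, which encodes a calcium-dependent membrane-binding protein, stood at 922 and 939 CPM, against 397 and 160.0 CPM. *Cd55*, which encodes a complement-decay factor on the cell surface, stood at 788 and 774 CPM, against 349.8 and 159.8 CPM. These 3 genes were the most abundant of the 7, and in the other cells their levels were lower in the adult than at puberty. Dropped *Pi16* *Dpp4* cells were 3587 of those 9221 pubertal cells and 1413 of those 14838 adult ones. In *Pdgfra*+ cells with 0 UMIs of *Pi16* and *Dpp4*, *Sema3c* was at 92.6 CPM at puberty and 44.2 CPM in the adult. *Anxa3* was at 22.7 and 18.6 CPM there, and *Cd55* at 61.4 and 52.0 CPM. The part of the dropped cells in the stage difference was not tested.

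The remaining 4 markers stood at lower levels, and their ratios over the other *Pdgfra*+ cells were 2.12 to 2.60 in the pubertal library and 7.26 to 8.42 in the adult one. *Akr1c18*, a steroid dehydrogenase that inactivates progesterone, was at 523 CPM (519 to 527) at puberty and 251 CPM (247 to 254) in the adult, and at 23.2 and 3.35 CPM in the cells under the UMI minimum. *Aldh1a3*, which makes retinoic acid from retinaldehyde, was at 178 and 126 CPM, against 8.21 and 1.56 CPM. The semaphorin gene *Sema3e* was at 372 and 284 CPM, against 29.9 and 9.82 CPM. *Efhd1*, a mitochondrial calcium-binding protein, was at 133 and 154 CPM, against 16.0 and 6.50 CPM. The fold over these cells ran from 6.84 for *Cd55* to 22.6 for *Akr1c18* at puberty, and from 9.14 for *Cd55* to 80.6 for *Aldh1a3* in the adult.

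**Figure D2:**
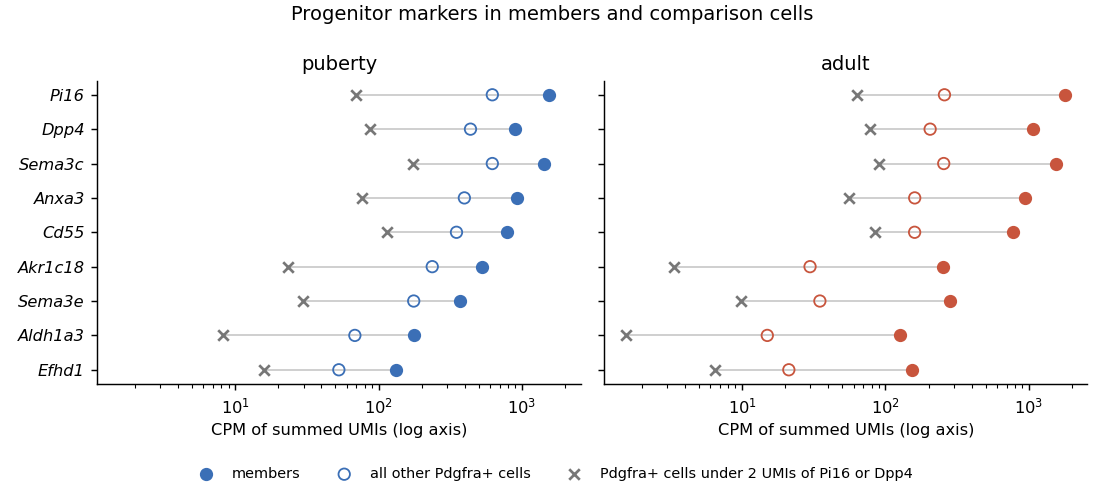
Levels (CPM, log axis) of *Pi16*, *Dpp4* and 7 further markers in progenitor fibroblasts (members, filled), all other *Pdgfra*+ cells (open) and *Pdgfra*+ cells with under 2 UMIs of *Pi16* or *Dpp4* (crosses), in each library. *Pi16* and *Dpp4* chose the cells. Every filled point lies to the right of its open point, as for *Sema3c* at 1422 against 622 CPM at puberty and 1555 against 255 CPM in the adult.

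To compare single cells at equal depth, each cell was thinned to 5000 UMIs, which left 9405 pubertal and 6016 adult progenitor fibroblasts and removed 252 and 145 shallower ones. *Sema3c* was then detected in 98.1% of them at puberty and 93.1% in the adult (99.5% and 96.3% unthinned), and *Anxa3* in 95.7% and 91.5% (99.2% and 96.5% unthinned). *Akr1c18* was detected in 73.1% and 45.8% (83.3% and 58.9% unthinned) and *Sema3e* in 44.4% and 37.1% (54.3% and 47.7% unthinned). Cells with no *Pdgfra* UMI and at least 3 of the pericyte and smooth muscle markers served as the background, with median depths of 6370.5 and 6186 UMIs before thinning. In these pericyte or smooth muscle-like cells the shares were 5.78% and 1.92% for *Sema3c*, 3.15% and 0.00% (0 of 261 cells, which allows a share of up to 1.15%) for *Akr1c18*, and 27.5% and 19.5% for *Anxa3*. All 7 markers together were detected in 10.1% of pubertal and 7.38% of adult thinned cells, and none of the 7 in 0.149% and 1.71%.

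The threshold cut through a continuous range. Progenitor fibroblasts held a median of 17.0 *Pi16* and 10.0 *Dpp4* UMIs at puberty and 20 and 13 in the adult. The 506 adult cells with exactly 2 UMIs of one of the genes, just inside the rule, had *Sema3c* at 479 CPM and the collagen gene *Col15a1* at 397 CPM, while the 1279 cells with 1 UMI of the scarcer gene, just outside it, had 226 and 537 CPM. At puberty the 424 cells just inside had *Sema3c* at 916 and *Col15a1* at 94.3 CPM, and the 739 just outside had 419 and 296 CPM. Few cells lay at this edge at puberty, and those in the adult were closer to the outside cells than to the 5655 progenitor fibroblasts with 3 or more UMIs of both genes, in which *Sema3c* was at 1643 and *Col15a1* at 93.9 CPM.

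Across the transcriptome, progenitor fibroblasts differed from the other *Pdgfra*+ cells by more genes that were lower than genes that were higher. Of 8934 genes with at least 10 CPM in some group, 109 (1.22%) were at least 2-fold higher in both libraries and 462 (5.17%) at least 2-fold lower, with medians over all genes of 0.01 and -0.05 on the log2 scale at puberty and in the adult. Over the cells under the UMI minimum, 376 of 9031 genes (4.16%) were at least 2-fold higher and 622 (6.89%) lower. The cells were chosen by genes of the same counts, so these are descriptions with no test.

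Genes were ranked by the smaller of the differences in the 2 libraries on the log2 scale, and adult ratios alone would give another order. *Limch1*, a regulator of actomyosin, was at 283 CPM at puberty and 291 CPM in the adult, against 97.8 and 33.7 CPM in the other cells and 18.3 and 6.22 CPM under the UMI minimum. *Tek*, the receptor for angiopoietins, was at 422 and 467 CPM, against 181 and 105 CPM in the other cells and 64.4 and 62.2 CPM under the minimum. *Edn1*, which encodes an endothelin, was at 55.2 and 96.2 CPM, against 23.9 and 13.2 CPM in the other cells and 3.41 and 3.18 CPM under the minimum, and *Pcsk6*, a proprotein convertase, at 244 and 361 CPM, which was 2.48 and 3.65 times the level of the other cells and 5.22 and 5.37 times that under the minimum. *Sbsn*, which encodes the secreted protein suprabasin, was at 176 and 166 CPM, against 61.4 and 23.9 CPM in the other cells and 13.9 and 9.13 CPM under the minimum. *Lurap1l*, *Gm15675*, *Car8*, *Arhgef28*, *Adcy2*, *Sytl2* and *Arl4d* completed the 15 highest beside *Aldh1a3*, *Efhd1* and *Anxa3*, with pubertal ratios of 2.38 to 2.61 and adult ratios of 5.21 to 7.66. *Krtdap*, a keratinocyte marker, was also higher, at 30.8 and 21.2 CPM against 10.5 and 2.32 CPM in the other cells, whereas *Krt10* was at 30.0 and 27.1 against 24.1 and 21.4 CPM.

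Genes that the study lists for its cluster of progenitor cells were looked up with those results known, so they are no independent evidence. Of 28 that the selection did not use, 12 were at least 2-fold higher than in the other *Pdgfra*+ cells and 26 over the cells under the UMI minimum, and 0 were lower in either comparison. Of all genes 1.22% and 4.16% were higher in the 2 comparisons, and 5.17% and 6.89% lower. *Creb5*, a transcription factor, was at 2035 and 1780.3 CPM, against 432 and 327 CPM under the minimum. *Ackr3*, a scavenger receptor for chemokines, was at 789.5 and 809.8 CPM, against 148 and 106 CPM. *Il33*, which encodes an alarmin cytokine, was at 111 and 123 CPM, against 32.9 and 11.9 CPM. *Igfbp5*, which binds insulin-like growth factors, was at 2407 and 3478 CPM, against 1006 and 610.4 CPM, and *Smpd3*, a sphingomyelinase, at 231 and 349 CPM, against 19.4 and 10.9 CPM.

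Of 18 surface antigens used to sort fibroblasts, *Cd55* was higher and *Cd9*, *Icam1*, *Vcam1* and *Mme* were lower than in the other *Pdgfra*+ cells, and over the cells under the UMI minimum 6 were higher and 5 lower. Shares of all genes were 1.22% higher and 5.17% lower in the first comparison, and 4.16% and 6.89% in the second. *Cd34*, a sialomucin of progenitor cells, was at 842 CPM at puberty and 987 CPM in the adult, against 540.0 and 458 CPM in the other cells and 342 and 383 CPM under the minimum. *Ly6a*, which encodes the stem cell antigen SCA1, was at 1602 and 1525 CPM, against 1410.1 and 802 CPM in the other cells and 954 and 613 CPM under the minimum. *Mme*, which encodes the peptidase CD10, was at 10.2 and 95.2 CPM, against 65.2 and 499 CPM in the other cells, and the adhesion molecule *Icam1* at 23.9 and 70.9 CPM, against 128 and 194 CPM in the other cells. Under the minimum these were at 109.8 and 568 CPM and at 204 and 205 CPM. *Thy1* was at 112 and 184 CPM, against 99.3 and 209 CPM in the other cells, and did not separate the cells in either library.

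Secreted signals of the Wnt and BMP families were on both sides. *Wnt10b*, a ligand known to hold back fat cell formation, was at 26.1 CPM (25.2 to 27.0) at puberty and 23.5 CPM (22.5 to 24.6) in the adult, against 1.23 and 0.252 CPM under the UMI minimum. *Bmp6* was at 32.2 and 44.4 CPM, against 3.12 and 5.04 CPM, and *Bmp7* at 41.6 and 36.7 CPM, against 4.28 and 6.72 CPM. Among antagonists, *Dkk3* was at 13.5 and 14.0 CPM, against 53.9 and 43.1 CPM. *Chrdl1*, a BMP antagonist, was at 322 and 267 CPM, against 263 and 108 CPM. Over the other *Pdgfra*+ cells, *Wnt10b* and *Rspo3* were higher and *Sfrp1* and *Dkk3* lower of 15 measured Wnt genes. Of 24 genes of the TGF-beta and BMP pathway 3 were higher and 5 lower. Beside both lists, 1.22% of all genes were higher and 5.17% lower. The ligands *Bmp2*, *Bmp6* and *Bmp7* were higher, while the lower genes included the ligands *Bmp5* and *Gdf10*, *Bmper* and *Id1*. The platelet-derived growth factor gene *Pdgfc*, whose product activates the PDGFRA receptor, was at 49.0 and 48.8 CPM, against 5.03 and 5.68 CPM under the UMI minimum.

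Of 17 measured guidance factors and receptors 2 were higher and 6 lower than in the other *Pdgfra*+ cells. For all genes the shares were 1.22% and 5.17%. The semaphorin ligand genes *Sema3c* and *Sema3e* were the higher ones, while *Nrp1*, a co-receptor of semaphorins, was at 87.0 and 108 CPM against 195 and 286 CPM in the other *Pdgfra*+ cells and 281 and 312 CPM under the UMI minimum. *Plxnd1*, the receptor for the *Sema3e* product, was at 3.26 and 6.00 CPM, against 13.4 and 22.3 CPM in the other cells. *Slit2*, a repulsive ligand, was at 58.3 and 173 CPM, against 144 and 945 CPM in the other cells and 221 and 1071 CPM under the minimum. The receptor genes *Nrp2* and *Robo2* and the ligand gene *Sema5a* were lower as well.

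Of 10 measured genes of Hedgehog signalling 4 were at least 2-fold lower than in the other *Pdgfra*+ cells and 0 higher. Over all genes 5.17% were lower and 1.22% higher. The median log2 ratios of the list were -0.91 and -0.83. *Gli1*, a transcription factor and target of the pathway, lay below the minimum of 10 CPM and is not among the 10. It was at 0.550 CPM (0.424 to 0.701) at puberty and 0.780 CPM (0.599 to 0.997) in the adult, against 8.25 and 5.04 CPM under the UMI minimum. *Hhip*, a target that inhibits the pathway, was at 2.90 and 1.51 CPM, against 43.9 and 11.7 CPM. The co-receptor gene *Boc* was at 15.8 and 25.4 CPM, against 50.2 and 60.1 CPM. *Gli3*, at 85.9 and 131 CPM against 80.1 and 132 CPM in the other cells, was about equal, and the co-receptor gene *Cdon* stood at 0.716 and 1.14 times its level under the UMI minimum.

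Of 16 measured genes of commitment to fat 9 were at least 2-fold lower than in the other *Pdgfra*+ cells and 0 higher. For all genes the shares were 5.17% and 1.22%. *Fabp4*, a lipid chaperone of preadipocytes, was at 21.5 CPM at puberty and 21.6 CPM in the adult, against 375 and 173 CPM under the UMI minimum. *Cd36*, a fatty acid transporter, was at 2.45 and 3.34 CPM, against 68.4 and 27.8 CPM. *Pparg*, the regulator of adipocyte formation, was at 14.3 and 30.4 CPM, against 81.5 and 106 CPM, and *Lpl*, a lipase, at 459 and 483 CPM, against 1375 and 1284 CPM. *Ebf2*, a transcription factor of adipose precursors, lay on the other side, at 581 and 983 CPM against 321 and 353 CPM under the UMI minimum.

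Of 27 interstitial collagens and processing enzymes 0 were 2-fold higher or lower than in the other *Pdgfra*+ cells, beside 1.22% and 5.17% of all genes. Over the cells under the UMI minimum 2 were higher and 0 lower, beside 4.16% and 6.89% of all genes. *Col1a1* stood at 9121 CPM at puberty and 3923 CPM in the adult, against 10796 and 5262 CPM in the other cells. Of 15 basement membrane genes 6 were lower and 0 higher, beside 5.17% and 1.22% of all genes. *Col15a1*, a collagen of basement membrane zones, was at 27.6 and 117 CPM, against 315 and 645 CPM, *Col4a1* at 213 and 470.1 CPM, against 1087 and 1605 CPM, and *Col18a1* at 15.6 and 50.4 CPM, against 83.6 and 258 CPM. The laminin gene *Lamc1*, at 786 and 793 CPM against 632 and 677 CPM, and *Nid1*, at 1965 and 1670.3 CPM against 1323 and 997 CPM, did not follow. *Fbn1*, the fibrillin of elastic tissue, was at 3361 and 2691 CPM, against 1041 and 907 CPM under the UMI minimum, and *Ugdh*, which makes a precursor of hyaluronan, at 4144 and 2583 CPM, against 1844 and 694 CPM. Over the other *Pdgfra*+ cells, 1 of 14 elastic fibre genes and 1 of 8 small leucine-rich proteoglycan genes were lower, and 0 of 6 hyaluronan genes were higher or lower.

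By the same ranking, the smaller of the 2 differences, the 10 lowest ratios were those of *Fabp4*, *Adam12*, *Sparcl1*, *Fmo2*, *Col15a1*, *F3*, *Enpp2*, *Cacna1c*, *Apoe* and *Mme*. *Sparcl1*, a matrix-associated glycoprotein, was at 40.3 and 163 CPM, against 358 and 1009.8 CPM in the other *Pdgfra*+ cells, and *Adam12*, a metalloprotease, at 21.1 and 82.6 CPM, against 244 and 534 CPM. *Apoe*, a lipid carrier, was at 74.2 and 102 CPM, against 715 and 536 CPM. Of 13 markers of the *Mmp3* *Fabp4* fibroblast class 12 were lower, beside 5.17% of all genes, with median log2 ratios of -2.60 and -2.35. The exception was *Postn*, at 2464 and 1802 CPM against 2884 and 4240.2 CPM.

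**Figure D3:**
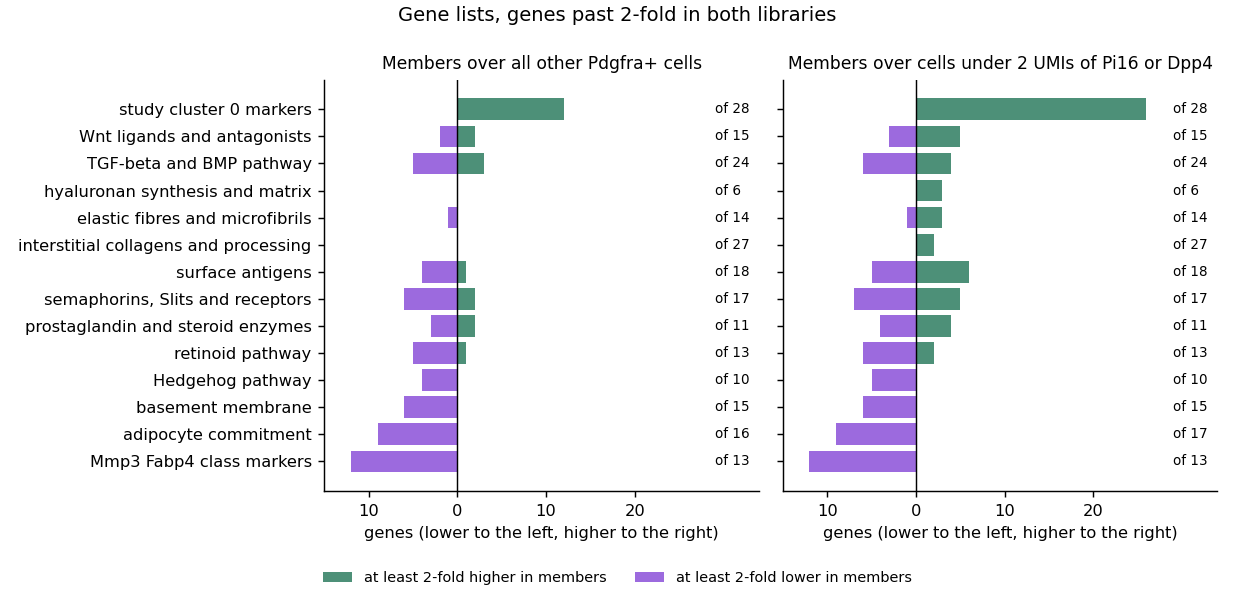
Genes of 14 lists at least 2-fold higher (green, to the right) or lower (purple, to the left) in progenitor fibroblasts (members) in both libraries, over all other *Pdgfra*+ cells (left panel) and over *Pdgfra*+ cells under the UMI minimum (right panel), with the number measured beside each bar. The first list is the study's own. Over all genes 1.22% were higher and 5.17% lower in the left panel, and 4.16% and 6.89% in the right panel.

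Of 12 receptors of hormones and growth factors 1 was lower than in the other *Pdgfra*+ cells. Over all genes 5.17% were lower and 1.22% higher, so a count of 1 does not set this list apart. The lower gene was *Prlr*, the prolactin receptor, at 6.29 and 2.62 CPM against 52.6 and 16.8 CPM in the other cells. *Esr1*, the estrogen receptor gene, was at 396 and 293 CPM, against 324 and 139.6 CPM, and *Egfr* at 1252 and 1478 CPM, against 1233 and 1706 CPM. Of 19 chemokines and cytokines 5 were lower and 0 higher, among them *Cxcl12*, at 45.6 and 84.7 CPM against 199 and 222 CPM, and *Cxcl14*, at 5.65 and 23.8 CPM against 49.0 and 149 CPM. Of 12 interferon-response genes outside the rule 4 were lower and 0 higher, among them *Iigp1*, at 225 and 193 CPM against 1047 and 650.4 CPM, and the rule had removed cells by genes of the same response. Of 16 genes induced by dissociation and stress 1, *Hspa1b*, was lower, which is near the share of all genes. *Fos* stood at 5739.6 and 6680.1 CPM against 6764 and 8275 CPM.

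Retinoid and prostaglandin genes included higher and lower ones. *Aldh1a3* and *Dhrs9*, at 155 and 99.3 CPM against 9.92 and 3.55 CPM under the UMI minimum, were high. *Ptgs2*, the inducible cyclooxygenase, was at 353 and 217 CPM, which was 3.92 and 3.26 times the level of those cells, and *Ptgs1* at 25.1 and 32.0 CPM, against 7.37 and 6.63 CPM. *Cyp1b1*, a steroid-metabolizing enzyme, was at 13.3 and 24.0 CPM, against 150.1 and 127 CPM. *Nr2f2*, a nuclear receptor, was at 15.7 and 28.8 CPM, against 133 and 148 CPM, while the transcription factor *Osr2* was at 312 and 184 CPM, against 77.2 and 48.6 CPM. Over the other *Pdgfra*+ cells 1 of 13 retinoid genes was higher and 5 were lower, 2 of 11 prostaglandin and steroid enzymes were higher and 3 lower, and 1 of 23 transcription factors was higher and 4 were lower. Of 16 growth factor genes 1 was higher and 3 were lower, of 11 complement genes 1 and 3, and of 20 proteases and inhibitors 0 and 5. Over all genes 1.22% were higher and 5.17% lower.

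To see how levels followed *Pi16* and *Dpp4* themselves, *Pdgfra*+ cells that the interferon and *Ccn5* criteria did not drop were thinned to 5000 UMIs and grouped by their summed UMIs of both genes. The grouping genes are part of the selection, so this is a description. *Sema3c* went from 107 CPM in 3403 pubertal cells with 0 UMIs to 1576 CPM in 7433 cells with 8 or more, and from 51.7 CPM in 8037 adult cells to 1887 CPM in 4625 cells. *Il33* was at 20.8 CPM in adult cells with 4 to 7 UMIs and at 166 CPM with 8 or more, and *Igfbp5* at 1117 and 4329 CPM. At puberty *Il33* was at 34.7 CPM with 0 UMIs, 47.9 CPM with 4 to 7 and 135 CPM with 8 or more, and *Igfbp5* at 995, 1349 and 2776 CPM. The step to the last group was thus larger in the adult for both genes, while *Sema3c* climbed at every step in both libraries.

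Other genes had their peak between the extremes. *Thbs4*, which encodes a thrombospondin of the matrix and marks the study's lobular-like fibroblasts, was at 79.3 CPM in adult cells with 0 UMIs, at 703 CPM with 2 to 3, at 757 CPM with 4 to 7, and at 56.7 CPM with 8 or more. At puberty its highest level was 349 CPM with 2 to 3 UMIs, against 4.25 CPM with 8 or more. *Myoc*, which encodes the secreted protein myocilin, followed the same course in the adult, at 62.1, 363, 482 and 176 CPM in the same groups. *Col15a1* in the adult declined from 744 CPM with 0 UMIs to 40.7 CPM with 8 or more, and its pubertal level from 586 to 11.1 CPM. *Fabp4* declined from 180.2 to 8.86 CPM in the adult and from 454 to 9.01 CPM at puberty.

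**Figure D4:**
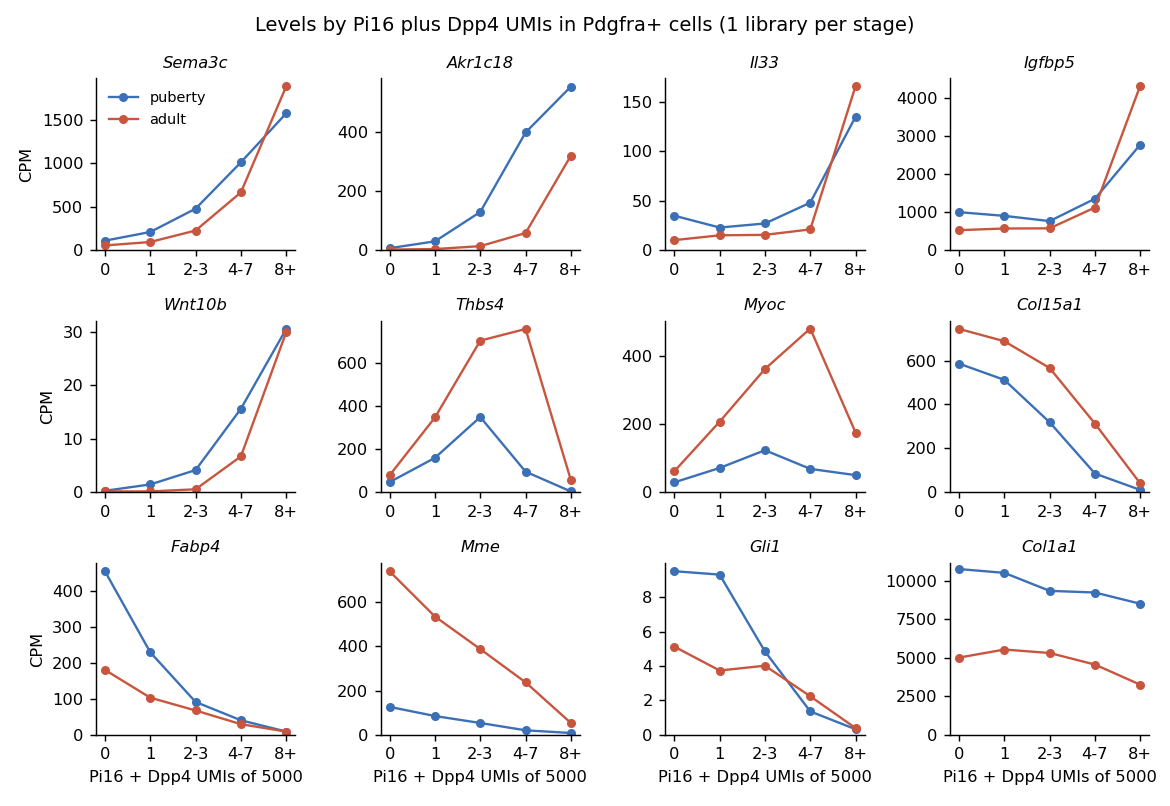
Levels (CPM) of 12 genes in *Pdgfra*+ cells thinned to 5000 UMIs and grouped by *Pi16* plus *Dpp4* UMIs, in the pubertal (blue) and the adult (red) library. *Sema3c* reaches 1576 and 1887 CPM at 8 or more UMIs, adult *Thbs4* peaks at 757 CPM with 4 to 7 UMIs, and *Col15a1* declines to 11.1 and 40.7 CPM.

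The progenitor fibroblasts also varied among themselves. At 5000 UMIs per cell the variance of a gene over its mean, which is about 1 for counting noise alone, had a median of 1.17 at puberty and 1.18 in the adult over 3690 genes. The 12 genes with the highest values were *Col3a1*, *Mgp*, *Sparc*, *Igfbp5*, *Col1a1*, *Col1a2*, *Tnfaip6*, *Cxcl1*, *Man1a*, *Fos*, *Gas7* and *Jun*. The value depends on the number of counts. At 3000 UMIs per cell that of *Col3a1* fell from 23.8 to 14.8 at puberty and from 22.9 to 14.0 in the adult. Mean levels ranged widely, as 80.2 UMIs for *Col3a1* and 0.219 for *Mgp* at puberty, so the order is not one of relative spread. The 10th and 90th percentiles of *Col3a1* were 31.0 and 143 UMIs at puberty and 14.0 and 81.0 UMIs in the adult. Those of *Igfbp5* were 0.00 and 31.0 UMIs at puberty and 0.00 and 43.0 UMIs in the adult, so that some cells had none and others many. *Mgp*, which encodes a matrix protein that binds calcium, was at 0.00 UMIs in the median cell of both libraries and reached 98 and 79 UMIs in single cells. Of the markers, *Sema3e* varied most, with a variance over mean of 7.01 and 7.17, against 1.51 and 2.40 for *Dpp4*.

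Detection of the markers in single cells was compared in pairs. Of 1977 thinned adult progenitor fibroblasts with an *Il33* UMI, 67.4% had *Akr1c18* and 58.7% *Aldh1a3*, against 35.2% and 27.5% of those without. At puberty the shares were 82.6% and 62.2% of 2976 cells with *Il33*, against 68.7% and 46.6% without. *Akr1c18* was detected in 81.6% of pubertal cells with *Sema3e* and 66.3% of those without. *Anxa3*, found in nearly all cells and so with little room to differ, was in 96.3% and 95.2% of the same cells. A small set of 346 adult cells with *Thbs4* had fewer markers, since 54.9% of them had *Sema3c* and 10.1% *Akr1c18*, against 95.4% and 48.0% of the 5670 cells without. At puberty *Thbs4* was detected in 0.670% of thinned progenitor fibroblasts (0.932% unthinned) and in the adult in 5.75% (7.11% unthinned). The pericyte or smooth muscle-like background had 0.701% and 1.15%, so the pubertal share alone did not exceed the background. The highest pubertal cell nevertheless held 57 *Thbs4* UMIs. Of the 63 pubertal cells with *Thbs4*, 77.8% had *Sema3c* and 36.5% *Akr1c18*, against 98.2% and 73.4% of the 9342 without. Whether the pubertal counts were stray was not tested.

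Between the stages, progenitor fibroblasts had more genes at least 2-fold higher in the adult than lower, but that balance depended on the scaling. Of 8407 genes with at least 10 CPM at either stage, 215 (2.56%) were higher and 97 (1.15%) lower in the adult library. With trimmed mean of M values (TMM) scaling the counts were 160 higher and 145 lower, since all log2 ratios between stages move by -0.14 and the median of all genes from 0.11 to -0.03. Of the 215 genes, 128 were also at least 2-fold higher in the other *Pdgfra*+ cells, 73 of the 97 were also at least 2-fold lower there, and 0 genes were 2-fold opposite. How many of all 8407 genes were past 2-fold in those cells was not counted. These overlaps thus have no share of all genes beside them and are a description. Stage and library cannot be told apart.

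The 12 genes with the highest adult level relative to puberty had ratios of 4.05 to 13.9. *Scg3*, a secretory granule protein, was at 7.68 CPM (7.19 to 8.20) at puberty and 107 CPM (105 to 109) in the adult. *Thbs4* was at 12.5 and 135 CPM. *Hmcn2* and *Hmcn1*, which encode the large matrix proteins hemicentins, had adult levels of 10.6 and 8.45 times the pubertal ones, and *Enpp2*, which encodes the lysophospholipase autotaxin, was at 7.45 and 76.2 CPM. *Mme* was at 10.2 and 95.2 CPM, *Myoc* at 54.3 and 233 CPM, *Col15a1* at 27.6 and 117 CPM and *Sparcl1* at 40.3 and 163 CPM. *Frmpd4* and *Prr16* had ratios of 12.5 and 4.57. *Hspa1b*, a heat shock gene, was at 21.4 and 164 CPM, with a ratio of 7.67 against 6.89 in the other *Pdgfra*+ cells. All 12 genes were also higher in the adult in those other cells, with ratios of 2.05 to 7.66.

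Many of these genes stood at higher levels in the other *Pdgfra*+ cells than in the progenitor fibroblasts. Cells just inside the rule were 506 of 6161 in the adult against 424 of 9657 at puberty. The genes were compared again in cells with 8 or more UMIs of both genes summed out of 5000, a setting added after the data were seen. *Thbs4* was at 4.25 CPM at puberty and 56.7 CPM in the adult, *Scg3* at 3.39 and 38.4 CPM, *Mme* at 8.02 and 53.2 CPM, *Col15a1* at 11.1 and 40.7 CPM, and *Hspa1b* at 18.4 and 130.4 CPM. The grouping used the genes of the rule, so these values are a description, and the part of the edge cells in the stage difference was not tested.

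The 12 genes with the lowest adult level relative to puberty had ratios of 0.102 to 0.379. *Rasgef1c*, named for a guanine exchange factor domain, was at 91.6 CPM (89.9 to 93.4) at puberty and 9.39 CPM (8.74 to 10.1) in the adult. *Il1rl1*, the receptor for interleukin-33, was at 56.2 and 8.53 CPM, while its ligand gene *Il33* was at 111 and 123 CPM. The chemokine genes *Cxcl2* and *Cxcl9* were at 51.5 and 15.1 CPM and at 52.6 and 19.3 CPM. *Fbn2*, a fibrillin of growing tissue, was at 129 and 49.0 CPM, with a ratio of 0.379, and *Igfbp3* was at 259 and 95.7 CPM. In the other *Pdgfra*+ cells *Fbn2* had a ratio of 0.830 and *Cxcl9* one of 0.505. The rest of the 12 lay between 0.0551 and 0.396 there. *B830012L14Rik*, *Cpz*, *Chl1*, *Mirg*, *Rnf180* and *Pdgfrl* had ratios of 0.177 to 0.322. *Col1a1* was at 9121 and 3923 CPM and the hyaluronan receptor gene *Cd44* at 773 and 343 CPM.

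**Figure D5:**
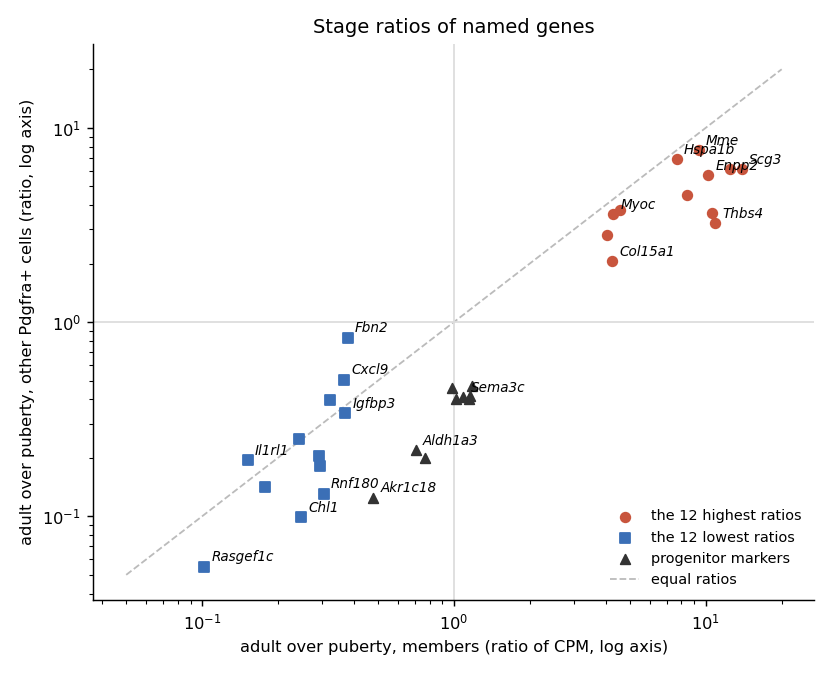
Adult over pubertal level (ratio of CPM, log axes) in progenitor fibroblasts (members, x axis) and in the other *Pdgfra*+ cells (y axis), for the 12 genes highest and the 12 lowest in the ratio and for the progenitor markers, with the line of equal ratios. *Scg3* and *Thbs4* lie at 13.9 and 10.9 in progenitor fibroblasts, and *Rasgef1c* at 0.102. The markers, which include *Pi16* and *Dpp4* that chose the cells, lie below the line, as *Sema3c* does at 1.09 against 0.410. Dropped *Pi16* *Dpp4* cells are 3587 of the 9221 other cells at puberty and 1413 of 14838 in the adult.

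Of the 7 markers outside the rule, *Akr1c18* had the lowest adult level relative to puberty, with a ratio of 0.479 (0.472 to 0.487). *Aldh1a3* was at 0.706, *Sema3e* at 0.765, and *Sema3c*, *Anxa3*, *Cd55* and *Efhd1* lay between 0.982 and 1.15. With TMM scaling the log2 ratio of *Sema3c* was -0.01 in place of 0.13 and that of *Anxa3* -0.11 in place of 0.03, and *Cd55* ranged from -0.16 to 0.11 over all settings, so no direction is given for these 3 genes. In cells with 8 or more *Pi16* plus *Dpp4* UMIs *Akr1c18* was at 555 CPM at puberty and 320.3 CPM in the adult, a smaller difference than in all progenitor fibroblasts. In the other *Pdgfra*+ cells the same markers had ratios of 0.125 to 0.457. Under the UMI minimum, where no dropped cells enter, *Akr1c18* was at 23.2 and 3.35 CPM and *Aldh1a3* at 8.21 and 1.56 CPM.

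By list, the adult progenitor fibroblasts were higher in 5 of 14 basement membrane genes and lower in 0, in 8 of 12 markers of the *Mmp3* *Fabp4* class, and in 5 of 8 lobular-like markers, beside 2.56% of all genes. The lobular-like markers had a median log2 ratio of 2.04 in progenitor fibroblasts and 1.43 in the other *Pdgfra*+ cells, and the basement membrane genes 0.31 and 0.50. *Fndc1*, a lobular-like marker, was already at 1149.6 CPM at puberty and at 1430.1 CPM in the adult, above the 656 and 393 CPM of the other cells. Of 27 interstitial collagen genes 1, *Col1a1*, at 0.430 times the pubertal level, was lower and 0 were higher, beside 1.15% and 2.56% of all genes. Of 11 hormone and growth factor receptors 0 were 2-fold higher or lower. *Cxcl13*, a chemokine that attracts B cells, was at 96.5 and 213 CPM, with a ratio of 0.885 in the other cells, and *C3*, the central complement gene, at 1543 and 2477 CPM.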

How the data were processed

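Per the labels, female C57BL/6 mammary stroma sorted as lineage-negative and CD24-negative was profiled with the 10x Chromium GEM-X 3′ kit. The authors deposited filtered matrices of raw UMI counts per gene and barcode, made with Cell Ranger 8.0.1 per the submitters' processing notes, which name mm10. The study's methods name other kit and software versions. Of 33696 listed gene identifiers, 1735 were absent from GENCODE M21, so no coordinates or sequences are given, and gene names are those of the files.

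Cells were chosen as stated in the report. The cells, gene lists and naming rule were chosen with earlier results of these data known. Raw counts were summed per group and library and divided to CPM, where rule genes were left out of the counts of genes. With 1 library per stage no test was run, and genes past 2-fold with at least 10 CPM in a compared group were counted. Intervals are exact binomial, Poisson or conditional binomial at 95%, and the limit for a count of 0 is 3 counts. Totals were 255274670 and 259549498 UMIs. Named genes are the 15 highest and 10 lowest over other *Pdgfra*+ cells with at least 50 CPM, the 12 highest and 12 lowest between stages, the 12 most variable, the markers and up to 5 genes a list. *Krtdap*, *Chrdl1*, *Postn* and others that depart from their list were named after their values were seen. Doublets were kept in the main analysis and removed as an alternative with Scrublet (scanpy 1.11.5), which took the highest-scoring 8.67% and 9.27% of barcodes, while its own threshold marked 2.14% and 3.26%. TMM factors came from edgeR 4.0.16. Scripts were tested on simulated data. Some genes counted in the lists are not reported here by name.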

Additional observations from a re-analysis of the deposited data

Results flagged for a closer look

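Cells that met the *Pi16*, *Dpp4* and quality criteria but had no *Pdgfra* UMI stood outside every comparison. The interferon and *Ccn5* criteria were not applied to them, unlike the progenitor fibroblasts they are set against here. There were 1074 at puberty and 404 in the adult, 40.4% and 20.5% of the quality-controlled cells without *Pdgfra*. Their median depth was 9899.5 and 9432 UMIs, against 11928 and 12603 UMIs in the progenitor fibroblasts. *Sema3c* was at 1539 and 1874 CPM in them, against 1422 and 1555 CPM, *Akr1c18* at 654 and 368 CPM, against 523 and 251 CPM, and *Col3a1* at 15739 and 8225 CPM, against 16676 and 8815 CPM. *Ptprc* was at 0.00 CPM in both libraries.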

How the results depend on the processing

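The adult share over the pubertal share, 0.574, stayed below 1 under every alternative run, at 0.633 with 1 UMI of *Pi16* and *Dpp4* required, 0.551 with 3 UMIs, 0.540 with cells thinned to 5000 UMIs before the rule, 0.554 without Scrublet doublets and 0.514 with the *Ccn5* and interferon cells kept. The 109 genes higher than in other *Pdgfra*+ cells became 208 with thinning first, 358 with the dropped cells kept, 376 with comparison cells under the UMI minimum, 400 with doublets also left out, and 457 against cells with 0 *Pi16* and *Dpp4* UMIs. The settings with comparison cells under the UMI minimum were chosen after seeing the data. In the last 2 settings the 462 lower genes became 694 and 696. Requiring 50 CPM gave 48 higher and 193 lower over other cells and 74 and 41 between stages, and requiring only 10 UMIs in all gave 493 and 2060, and 2310 and 1982, as fewer or more genes were counted. Some list medians turned: interferon-response genes outside the rule at puberty to 0.02 with the dropped cells kept, retinoid genes in the adult to 0.40 at 50 CPM, Wnt genes in the adult to -0.32 with 10 UMIs in all, and lobular-like markers in the adult to 0.76 against cells with 0 UMIs of both genes. The cause was not tested beyond the construction of each alternative. Depth limits genes under 10 CPM. No paired analysis was possible because the stages share only 1 replicate number and no test was run.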
